A study of Homo sapiens with 2 samples.

Results

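The mRNAs of the proteasome were examined in RNA bisulfite sequencing (BS-Seq) data of MCF10A, a non-tumorigenic human breast epithelial cell line, and MDA-MB-468, a human breast cancer cell line. Members were the protein-coding genes whose symbol begins with PSMA, PSMB, PSMC, PSMD, PSME, PSMF or PSMG in the GENCODE annotation of GRCh37. A cytosine was used when at least 10 counts covered it and it lay on a same-strand exon of a basic transcript, that is, a transcript of the reduced GENCODE set. There were 50 such genes among 20176 annotated protein-coding genes. In MCF10A, 46 of them had at least 1 usable cytosine and together gave 5963 sites of the 1584002 in the library. In MDA-MB-468, 43 genes gave 4898 sites of 1271253. PSMC3IP and PSME3IP1 carry the same prefixes but encode partner proteins rather than subunits.

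The labels give no treatment for either line, and both RNAs were selected for poly(A) and kept in sodium bisulfite at 60 degrees for 8 hours. Each line gave 1 library, so no value here has a replicate. All intervals are 95% Wilson intervals of counting error, and they are too narrow, since neighbouring cytosines are often counted from the same reads. Bisulfite turns unmodified cytosine into uracil, which is read as T, whereas 5-methylcytosine (m5C) stays C. The methylation ratio of a site is the unconverted share of its counts. It cannot tell m5C from a cytosine that the chemistry failed to reach.

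The proteasome degrades proteins marked with ubiquitin. Its 20S core is a stack of rings of alpha and beta subunits, and some beta subunits hold the protease sites. The 19S cap binds ubiquitin chains, unfolds the substrate with a ring of ATPases and feeds it into the core. Interferon induces the alternative catalytic subunits PSMB8, PSMB9 and PSMB10 and the activator PSME1 and PSME2, which form and open the immunoproteasome. Chaperones of the PSMG family assemble the core, and PSMF1 is an inhibitor.

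Coverage of the kept sites had a median of 18 in either library, and library-wide nonconversion was 1.99% for MCF10A and 1.81% for MDA-MB-468. The lines were checked by coverage of known marker genes. EGFR, amplified in MDA-MB-468, had 1843 sites at a median coverage of 43 there, and 750 at 17 in MCF10A. RB1 and SMAD4, deleted in MDA-MB-468, had no site there, and CDKN2A, deleted in MCF10A, had none in MCF10A. In the other line SMAD4 had 157 sites and CDKN2A 194. RB1 had only 11 in MCF10A, so its absence in MDA-MB-468 is a weak check. The basal epithelial markers KRT14 and TP63 had no site in either library, and KRT5 was covered in both. Of the luminal markers, EPCAM was covered only in MDA-MB-468. KRT8 and KRT18 were covered in both libraries, with 234 and 105 sites in MCF10A and 258 and 250 in MDA-MB-468.

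The m5C sites of the members formed 14 stretches of mRNA, and 8 of these carry the results that follow. Each is shown as 30 bases of the mRNA strand of GRCh37, written 5′ to 3′ as DNA, with cytosines called m5C in either library in capitals. The PSMD3 5′UTR site and the PSMC3 exon 7 stretch hold the cytosines called in both libraries, the PSMC3 pair shares a sequence, and the PSMD3 3′UTR stretch was called at different cytosines in either library. The remaining stretches were called in 1 library each.
PSMD3 5′UTR, chr17:38137151-38137180, plus strand: cctggtccccggtgCgagggttaacgcgag
PSMD3 3′UTR, chr17:38153991-38154020, plus strand: cccagggctcCtccccagCCggtgacttac
PSMC3 exon 7, chr11:47444388-47444417, minus strand: gaccctcctggCCCgggCctgtgccgcaca
PSMC3 exon 10, chr11:47441842-47441871, minus strand: caatgaggaggCcCgggCCagaatcatgca
PSMB6 exon 1, chr17:4699514-4699543, plus strand: cggggagccgggCCagCaccggcttggggg
PSME2 exon 1, chr14:24615778-24615807, minus strand: ctagcgaCtgaagcagCatggCCaagccgt
PSMF1 5′UTR, chr20:1099303-1099332, plus strand: ggcaagaaccagcgCaagagggaagcagag
PSMG3 3′UTR, chr7:1607239-1607268, minus strand: tcaagtctcaCCtCCCtCCCcggtggaggg

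A site was called m5C when its unconverted counts exceeded the library background in a one-sided Fisher's exact test, with Benjamini-Hochberg adjustment over all kept sites at 0.05. In MCF10A, 17 of 5963 sites in proteasome mRNAs were m5C sites, or 0.285% (0.178% to 0.456%). Over all kept sites of that library the share was 0.96%, and over the mRNA sites of all protein-coding genes it was 0.847%. In MDA-MB-468, 19 of 4898 sites were called, or 0.388% (0.248% to 0.605%), where the shares were 0.84% over all kept sites and 0.73% over all mRNA sites. The member shares and their intervals lay below the mRNA-wide shares in both libraries, although the median coverage of member sites was higher, at 25 and 23 against 18. Split by coverage, the member share was lower in every class except 50 to 99 in MDA-MB-468. There 14 of 656 member sites (2.13%) were called, the PSMG3 stretch among them, against 1.08% of all mRNA sites. At a coverage of 20 a call needed at least 5 unconverted counts (MCF10A) or 4 (MDA-MB-468), so a methylation ratio much below 20% could not be called at typical depth.

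At least 1 m5C site was found in 7 of 46 member genes in MCF10A, where 21.1% of all protein-coding genes with a site had one. It was found in 6 of 43 in MDA-MB-468, where the share over all genes was 16.9%. Longer or better covered genes offer more sites. Among genes with at least 100 sites, 6 of 26 members (23.1%) had an m5C site in MCF10A against 36.3% of all genes, and 6 of 21 (28.6%) against 32.6% in MDA-MB-468. The member intervals, 11% to 42.1% and 13.8% to 50%, include the values of all genes.

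The m5C sites were next counted by role, beside the shares of 0.285% and 0.388% over all member sites. Within the 20S core, the alpha ring, which gates entry, had none at 549 sites in MCF10A, which allows a share of up to 0.546%, and 1 at 427 sites in MDA-MB-468, in PSMA5. The constitutive beta ring had 4 at 1026 sites in MCF10A (0.390%), in PSMB4 and PSMB6, and 1 at 906 sites in MDA-MB-468 (0.110%), in PSMB1. The interferon-induced beta subunits had none at 315 and 491 sites, which allows up to 0.952% and 0.611%. Among the 19S ATPases, PSMC3 held all m5C sites, with 4 at 707 sites for MCF10A (0.566%) and 5 at 646 for MDA-MB-468 (0.774%). The 19S non-ATPase subunits had 4 m5C sites at 2113 sites in MCF10A (0.189%), in PSMD3, PSMD7 and PSMD11, and 3 at 1360 sites in MDA-MB-468 (0.221%), all in PSMD3. The activators and inhibitor had 5 at 813 sites in MCF10A (0.615%), all in PSME2, and 1 at 616 in MDA-MB-468 (0.162%), in PSMF1. The core chaperones had none at 173 sites in MCF10A and 8 at 268 sites in MDA-MB-468 (2.99%), all in PSMG3. PSMC3 with 9, PSMG3 with 8 and PSMD3 and PSME2 with 5 each led the count of calls over both libraries.

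PSMD3, a subunit of the 19S lid, held the member site with the lowest adjusted p in MCF10A, a lone cytosine in exon 1, 59 nt upstream of the start codon at chr17:38137165. It was unconverted in 13 of 59 counts in MCF10A, 22.0% (13.4% to 34.1%, adjusted p = 3.77e-08 by Fisher's exact test). In MDA-MB-468 it was unconverted in 11 of 63, 17.5% (10.04% to 28.6%, adjusted p = 4.62e-06 by the same exact test). The other 8 cytosines of the printed window were unconverted in 5 of 499 counts (1.002%) for MCF10A and 7 of 538 (1.30%) for MDA-MB-468. Of these, the cytosine 12 nt downstream had 4 unconverted counts in each library, of 62 and 65, and the others had 0 or 1. The signal stood at 1 cytosine in each library, in the trinucleotide GCG and with a predicted pairing probability of 0.62.

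PSMD3 also had m5C sites in its 3′UTR. At chr17:38154001, 170 nt after the stop codon, 4 of 13 counts (30.8%) were unconverted in MCF10A, against 5 of 36 (13.9%) in MDA-MB-468, where the site was not called. At chr17:38154009 and chr17:38154010 the counts were 6 of 30 (20%) and 8 of 32 (25%) in MDA-MB-468, against 2 of 11 at each in MCF10A. The 11 uncalled cytosines of this stretch were also unconverted in 17 of 130 counts (13.1%) and 22 of 367 (5.99%). Unlike at the 5′UTR site, the unconverted counts here spread over many cytosines.

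PSMC3 encodes an ATPase of the 19S base. In exon 7, codons 237 to 239, 4 cytosines were called in MCF10A. The highest was chr11:47444405 with 7 of 20 counts (35.0%, 18.1% to 56.7%, adjusted p = 1.58e-05 by Fisher's exact test), and its flanking cytosines chr11:47444404 and chr11:47444406 each had 6 of 20 (30%). All 3 had 3 of 30 counts (10%) in MDA-MB-468 and were not called there. The remaining cytosine, chr11:47444400, was called in both libraries, with 4 of 18 counts (22.2%) for MCF10A and 5 of 30 (16.7%) for MDA-MB-468. The 10 uncalled cytosines of the window had 7 of 203 counts (3.45%) unconverted in MCF10A, against 4 of 318 (1.26%) in MDA-MB-468.

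In exon 10 of PSMC3, codons 361 to 363, 4 other cytosines were called in MDA-MB-468 only, with 6 to 8 unconverted counts of 51 to 54. The highest, chr11:47441858, had 8 of 54 (14.8%) in MDA-MB-468 and 2 of 15 (13.3%) in MCF10A, where even a coverage of 10 would need 4 unconverted counts for a call. Both exons hold the run GGCCCGGGCC, which is its own reverse complement, a feature noticed after the values were seen. Over the 5 cytosines of the run in exon 7, 26 of 96 counts (27.1%) were unconverted in MCF10A, against 16 of 150 (10.7%) in MDA-MB-468. In exon 10 the values were 10 of 71 (14.1%) and 34 of 264 (12.9%). Of the 50 member transcripts, only PSMC3 holds the run, and 42 of 105522 windows of 30 nt along them contain it (0.0398%). The match is a description of the letters.

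PSMB6, which provides a constitutive catalytic beta subunit, had m5C sites in MCF10A at 3 cytosines of codons 13 and 14. These had 6 of 32 (18.8%), 5 of 31 (16.1%) and 5 of 30 (16.7%) unconverted counts. In MDA-MB-468 the same cytosines had 0 of 10, 0 of 10 and 0 of 9, where the interval still reached 29.9%. All 9 cytosines of the printed window had ratios of 10.3% to 18.8% in MCF10A, so none of them stood out. In MDA-MB-468 the window had 2 unconverted counts of 88 (2.27%).

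PSME2, a subunit of the interferon-induced activator, had 5 m5C sites around its start codon in MCF10A. Those at 10 and 1 nt before the start codon and in codon 2 had 5 or 6 unconverted counts of 28 to 31, and one in codon 10 had 4 of 14 (28.6%). In MDA-MB-468 the same 5 cytosines had 0 or 1 unconverted count of 14 to 18. Over the 9 cytosines of the printed window, 37 of 251 counts (14.7%) were unconverted in MCF10A, with every cytosine at 6.90% or more, against 2 of 143 (1.40%) in MDA-MB-468. PSME2 is a gene with near copies in the genome. Of its 50-nt windows after bisulfite conversion, 46.1% recur elsewhere in GRCh37, but none of the windows around its m5C sites does.

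PSMG3, a chaperone of core assembly, held 8 of the 10 3′UTR m5C sites of MDA-MB-468, all within 10 nt. They lay 79 to 88 nt after the stop codon and had 7 to 14 unconverted counts of 60 or 61. The highest was chr7:1607251 with 14 of 61 (23.0%, 14.2% to 34.9%, adjusted p = 1.59e-09 by Fisher's exact test). In MCF10A these cytosines had 1 or 2 unconverted counts of 16 or 17. The 4 other cytosines of the window had 10 of 223 counts (4.48%) unconverted in MDA-MB-468. Predicted pairing probabilities, computed at 70 degrees, were 0.83 to 0.99 for 7 of the 8 sites and 0.30 for chr7:1607249.

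PSMF1, the inhibitor, had an m5C site in its 5′UTR in MDA-MB-468 at chr20:1099317, 100 nt before the start codon, with 6 of 25 counts (24.0%, 11.5% to 43.4%). In MCF10A the coverage was higher and only 3 of 72 (4.17%, 1.43% to 11.5%) were unconverted. The remaining genes had 1 m5C site each. PSMB4 had 9 of 113 (7.96%) in MCF10A, the lowest ratio of any call. PSMB1, a beta subunit without protease activity, had 7 of 60 (11.7%) in MDA-MB-468 and 5 of 34 (14.7%) without a call in MCF10A. PSMA5 had 4 of 18 (22.2%) in MDA-MB-468, and the 19S subunits PSMD7 and PSMD11 had 4 of 18 (22.2%) and 4 of 12 (33.3%) in MCF10A. The PSMD11 site lies in a run of CAG triplets in the 3′UTR.

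**Figure D1:**
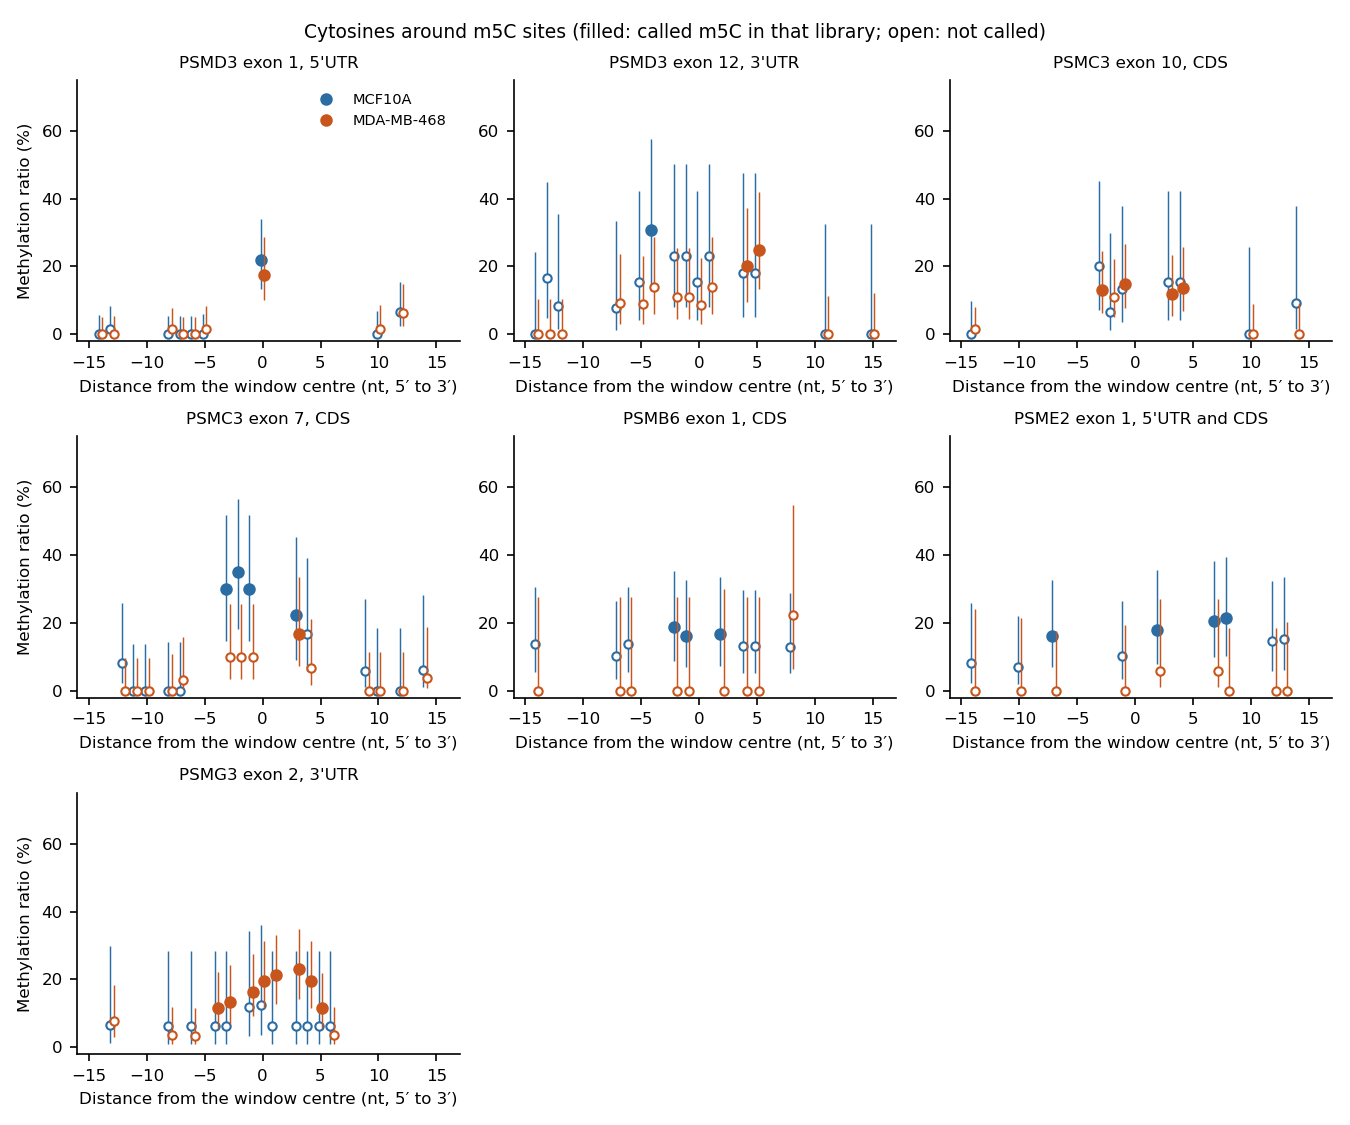
Methylation ratio (%) of each covered cytosine against its distance in nt from the centre of the 30-nt window, for the windows with 2 or more m5C sites and the PSMD3 5′UTR window, in MCF10A (blue) and MDA-MB-468 (orange); filled points were called m5C in that library and bars are 95% Wilson intervals. The PSMD3 5′UTR site stands alone at 22.0% and 17.5%, whereas in PSMB6 and PSME2 all cytosines of the window were raised in MCF10A.

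Across members, 11 of 17 m5C sites (MCF10A) and 14 of 19 (MDA-MB-468) had another m5C site within 10 nt. In MDA-MB-468, 8 of these 14 were the PSMG3 stretch. The same share over all m5C sites of a library was not computed, so these counts have no comparison. The m5C sites of members were predicted to be paired with a probability over 0.5 in 11 of 17 and 16 of 19 cases. The shares over all member sites were 58.1% and 59.2%. Structure can shield cytosine from bisulfite, and its part in these calls was not tested. Leaving out sites of pairing probability over 0.5 left 6 m5C sites (MCF10A) and 3 (MDA-MB-468). Over all member sites, called or not, the unconverted shares of paired and unpaired cytosines were 2.28% and 2.32% for MCF10A and 1.80% and 1.73% for MDA-MB-468. No m5C site lay in a recurring 50-nt window or on an exon of another gene.

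By mRNA region, 5′UTR sites of members were called in 3 of 719 cases in MCF10A, 0.417% (0.142% to 1.22%), where 2.24% of all 5′UTR sites were. In MDA-MB-468 it was 2 of 551, 0.363% (0.0996% to 1.31%), against 1.95%. In the coding sequence (CDS) 11 of 4454 member sites (0.247%) were called against 0.615% of all in MCF10A, and 7 of 3591 (0.195%) against 0.551% in MDA-MB-468. In the 3′UTR, 3 of 790 (0.380%) were called against 0.837% in MCF10A. In the 3′UTR of MDA-MB-468 it was 10 of 756 (1.32%), whose interval of 0.720% to 2.42% includes the 0.739% of all, and 8 of these 10 were the PSMG3 stretch. Without sites of pairing probability over 0.5 the member share there was 0.307%, that of the MDA-MB-468 CDS 0.0682% and that of the MCF10A 5′UTR 0%. The same step put the MCF10A CDS at 0.213%, and it raised the MCF10A 3′UTR to 0.594% and the MDA-MB-468 5′UTR to 0.481%.

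**Figure D2:**
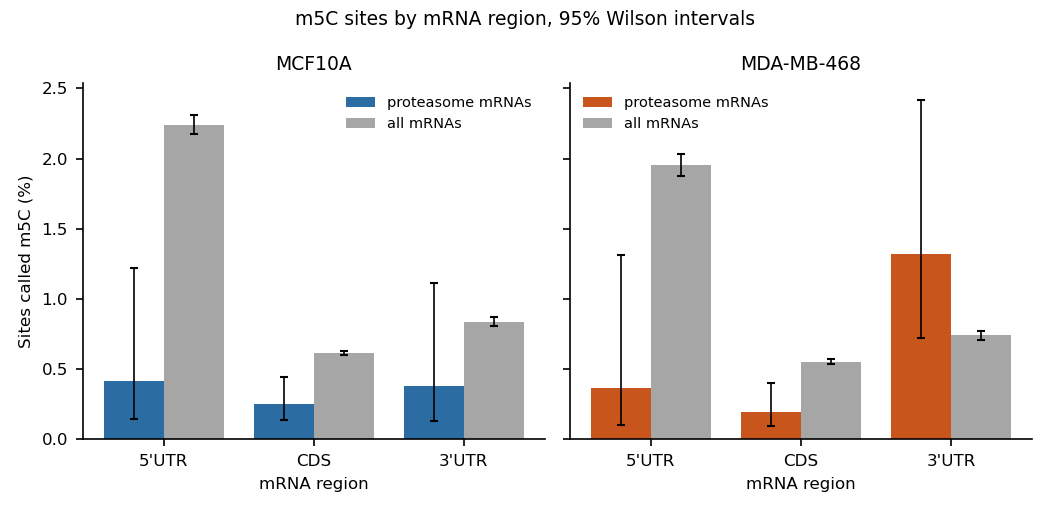
Share of sites called m5C (%) in the 5′UTR, CDS and 3′UTR for proteasome mRNAs (coloured bars) and all mRNAs (grey bars) in each library, with 95% Wilson intervals. In the 5′UTR, 0.417% and 0.363% of member sites were called against 2.24% and 1.95% of all.

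Next, all counts were pooled, whether or not a site was called. Over the members 5051 of 219927 counts were unconverted in MCF10A, 2.30% (2.23% to 2.36%), and 1.94% were over all mRNA. In MDA-MB-468 it was 3076 of 173753, 1.77% (1.71% to 1.83%), against 1.72%. With all coverages pooled, members had a lower share of m5C sites than all mRNAs but, in MCF10A, a higher share of unconverted counts. The unconverted counts were spread over many sites. In MCF10A 48.6% of member sites had no unconverted count against 64.9% of all mRNA sites, and in MDA-MB-468 59.6% against 69.8%. Deeper coverage raises the chance of at least 1 unconverted count, and its part in these shares was not tested. By coverage class the order of members and all mRNA varied. At a coverage of 10 to 19 the unconverted share was 3.55% in members and 2.37% over all mRNA in MCF10A, and 2.37% against 1.92% in MDA-MB-468. At 20 to 49 it was 2.497% against 2.13% in MCF10A, and 1.85% against 1.80% in MDA-MB-468. At 50 to 99 members were lower in MCF10A, with 1.87% against 2.01%, and higher in MDA-MB-468, with 1.86% against 1.71%. At a coverage of 100 or more the values were 1.77% and 1.57% for MCF10A, and 1.17% and 1.49% for MDA-MB-468.

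Gene by gene, among those with at least 10 sites, the median unconverted share was 2.55% over 44 members in MCF10A and 1.77% over all genes, and 40 of the 44 were above that median. In MDA-MB-468 it was 1.77% over 43 members against 1.42%, and 28 of 43 were above. Highest in MCF10A were PSMC3IP with 9 of 107 counts (8.41%), PSMG4 with 17 of 224 (7.59%) and PSME2 with 95 of 1399 (6.79%). In MDA-MB-468 they were PSMD12 with 15 of 205 (7.32%), PSMG1 with 14 of 236 (5.93%) and PSMD14 with 12 of 222 (5.41%). These genes were chosen after their values were seen, and apart from PSME2 all rest on few counts. The member with the most counts, PSMA7 in MCF10A, had 444 of 24822 unconverted (1.79%).

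**Figure D3:**
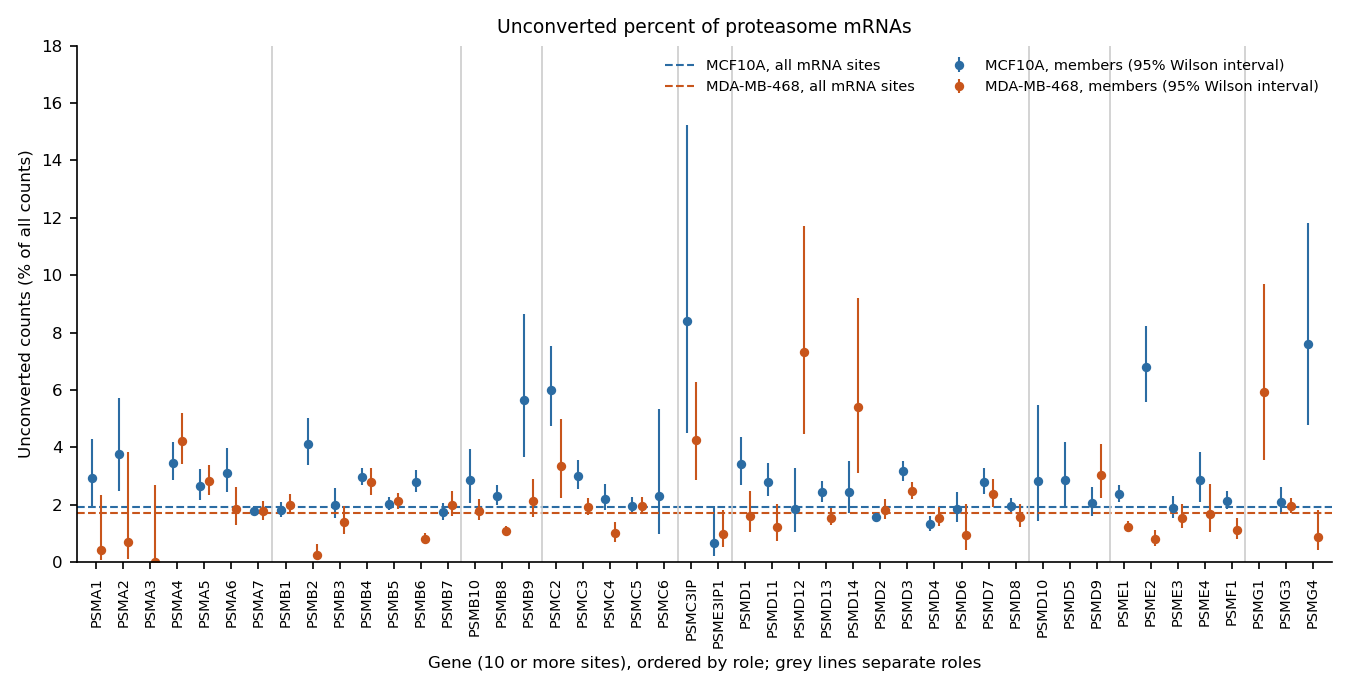
Unconverted counts as a percentage of all counts for each member gene with at least 10 sites, ordered by role, in MCF10A (blue) and MDA-MB-468 (orange) with 95% Wilson intervals; dashed lines are the values over all mRNA sites, 1.94% and 1.72%. Most MCF10A points lie above their line, and the genes with the highest values have wide intervals, except PSME2 in MCF10A.

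The libraries were then compared site by site at the 4248 member sites covered at least 10 times in both, which lay in 40 genes. A two-sided Fisher's exact test, adjusted over all 812729 shared sites, called no member site differential, and the smallest adjusted p was 1. Over all shared sites 0.0202% were higher and 0.0691% lower in MDA-MB-468. At an unadjusted p under 0.05 there were 31 member sites, 13 (0.306%) higher and 18 (0.424%) lower in MDA-MB-468. At the same threshold 0.4% of all shared sites were higher and 0.743% lower. The smallest unadjusted p by Fisher's exact test was at chr14:24613656 in the CDS of PSME2, with 5 of 36 counts unconverted in MCF10A against 1 of 130 in MDA-MB-468. This test compares the libraries and not the lines as populations.

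Of the shared member sites, 14 were called in MCF10A, 18 in MDA-MB-468 and 2 in both. Over all mRNA, 8089 and 6087 shared sites were called and 3858 of them in both. Coverage was not matched in these overlaps, and its part in them was not tested. Many member calls lay where the other library had few counts, as in PSMG3, with 60 or 61 in MDA-MB-468 against 16 or 17 in MCF10A. Others did not. The PSMF1 site had 72 counts in MCF10A, and the PSMC3 exon 7 cytosines called only in MCF10A had 30 in MDA-MB-468. Across 2303 member sites with at least 20 counts in each library, the methylation ratios had a Pearson correlation of 0.20 and a Spearman correlation of 0.13. Across 317296 such sites of all mRNAs the Pearson correlation was 0.63, and no Spearman correlation was computed. The ratios of member m5C sites reached 35% (MCF10A) and 25% (MDA-MB-468), whereas sites of all mRNAs at a coverage of at least 10 reached 100%. The part of this range in the correlations was not tested. The correlations describe sites and not replicates, and neighbouring sites share reads.

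At shared sites 2.14% (MCF10A) and 1.75% (MDA-MB-468) of member counts were unconverted, against 2.05% and 1.72% over all mRNA. The share was lower in MDA-MB-468 in 27 of 40 member genes, and in 65.3% of all protein-coding genes. Intervals did not overlap in 10 members with the higher share in MCF10A, where 19.7% of all genes were so, and in 2 with the higher share in MDA-MB-468, where 4.9% were. The 10 were PSMB2, PSMB6, PSMB8, PSMB10, PSMC3, PSMD1, PSMD13, PSME1, PSME2 and PSMG4, and the 2 were PSMD12 and PSMD14. PSME2 had 95 of 1399 counts (6.79%) in MCF10A, against 27 of 3280 (0.823%) in MDA-MB-468. PSMB2, a constitutive beta subunit, had 83 of 2021 (4.11%) and 5 of 1877 (0.266%). PSMB5, the chymotrypsin-like subunit and target of bortezomib, had 2.04% and 2.11% and did not differ beyond its intervals.

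Coverage also gives a rough level of each mRNA. The level used here is the sum of counts at listed cytosines per exonic cytosine, per 10000000 counts on nuclear mRNA of the library. Files list cytosines from a coverage of 5, so the level understates weakly covered genes. Each library is bulk RNA of a single cell line, so more cells with an mRNA and more of it per cell cannot be told apart. A ratio was formed for the 41 members with at least 10 sites in each library. The median log2 ratio of MDA-MB-468 over MCF10A was 0.05 for members and 0.00 for 5987 genes. A level over 2-fold higher in MDA-MB-468 was found for 10 members where 21.1% of all genes had one, and over 2-fold lower for 4 where 20.9% did. The counts over all members were near or below these shares, and the ratios varied by role.

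The interferon-induced subunits were higher in MDA-MB-468. PSMB8 had a level of 2.60 in MCF10A and 6.42 in MDA-MB-468, a log2 ratio of 1.30. PSMB9 had 0.356 and 1.58, a log2 ratio of 2.15, and PSMB10 had 0.968 and 4.05, a log2 ratio of 2.06. The activator subunits PSME1, with 4.61 and 9.81, and PSME2, with 1.12 and 4.13, had log2 ratios of 1.09 and 1.89. The constitutive counterparts moved less. PSMB5 had 7.97 and 8.25, a log2 ratio of 0.05, PSMB6 had 4.67 and 8.16, a log2 ratio of 0.81, and PSMB7 had 5.38 and 4.02, a log2 ratio of -0.42. The chaperone PSMG3 was at 1.10 and 4.88 and PSMC3 at 1.98 and 4.75, log2 ratios of 2.15 and 1.26.

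Lower in MDA-MB-468 by more than 2-fold were the alpha subunits PSMA1, at 0.505 and 0.190, and PSMA7, at 10.5 and 4.06, and the lid subunits PSMD6 and PSMD14, with log2 ratios of -1.10 and -1.11. Of the 11 members of the 19S non-ATPase list, 4 were higher in MDA-MB-468, and the median log2 ratio was -0.54. PSME2, PSMC3 and PSMG3 had higher levels in MDA-MB-468, yet their m5C sites differed in direction. PSME2 was called only in MCF10A, where its level was lower. The m5C sites of its printed stretch nevertheless had more counts there, 28 to 31 against 17 or 18 in MDA-MB-468. Its site in codon 10 had 14 counts in each library. PSMG3 was called only where its level was higher and the coverage of the stretch was 60 rather than 16, and PSMC3 in both libraries. Without replicates no test of these levels could be made.

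**Figure D4:**
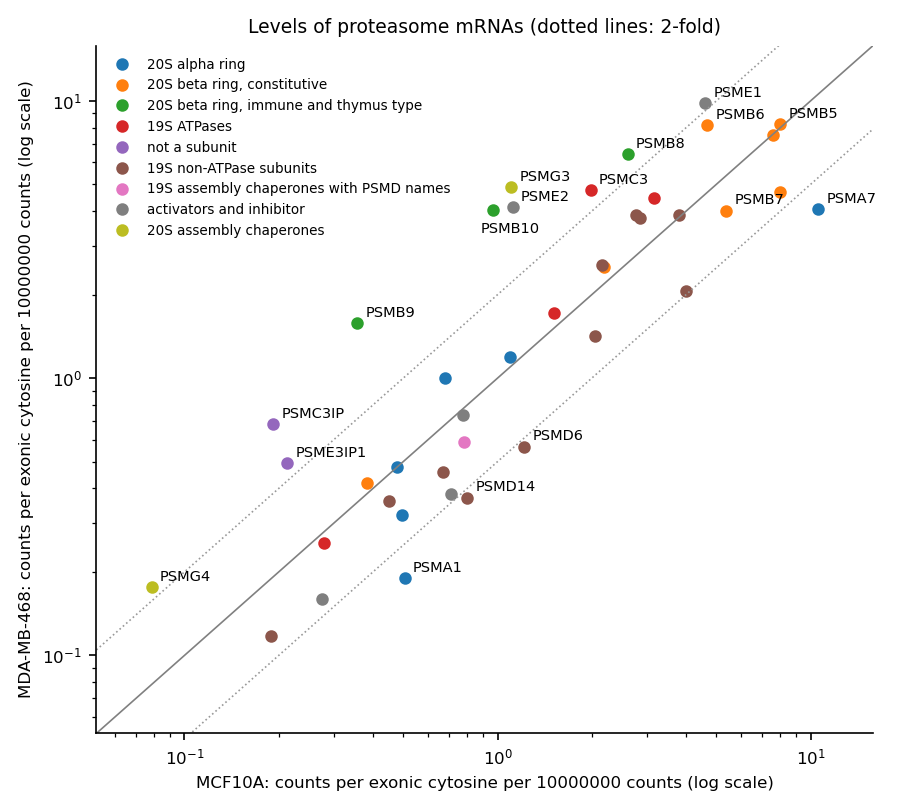
Level of each member with at least 10 sites in each library, in counts per exonic cytosine per 10000000 mRNA counts, MDA-MB-468 against MCF10A on log axes, coloured by role; the solid line marks equality and the dotted lines 2-fold. The interferon-induced subunits PSMB8, PSMB9 and PSMB10 lie above the upper dotted line, and PSMB5, PSMB6 and PSMB7 lie within the dotted lines.

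Members without a usable site in either library were PSMA8 and PSMB11, which are the testis and thymus type subunits and were not listed at all, PSMC1, also not listed, and PSMG2. PSMC6, PSMD5 and PSMD10 had sites in MCF10A only. Recurring windows made up 41.0% of the PSMC1 transcript, 42.2% of PSMC6, 40.1% of PSMA6 and 48.8% of PSMD4, and none of PSMG2. Reads from such windows can be placed at either copy, and the part of this in the missing or covered sites was not tested.

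The sequence contexts known for the mRNA methyltransferases NSUN6 (first C of CTCCA) and NSUN2 (first C of CNGGG) were examined on the mRNA strand. At CTCCA no member site was called, of 39 (MCF10A) and 33 (MDA-MB-468), where 0.627% and 0.481% of all mRNA sites in this context were. A count of 0 at these numbers allows up to 7.69% and 9.09%. At CNGGG 2 of 185 sites (1.08%) were called in MCF10A, in PSMC3 and PSME2, and none of 161 in MDA-MB-468, against 2.17% and 1.82% over all mRNA. No site in either context was called in both libraries.

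A list of 24 other genes of the proteasome pathway, among them the ubiquitin receptor ADRM1, the maturation factor POMP and the transcription factor NFE2L1, which induces proteasome genes, was described alongside. In MDA-MB-468, 19 had sites, and NFE2L1 was the only one with m5C sites, where 16.9% of all protein-coding genes with a site had one. Its m5C sites made up 12 of the 3209 sites of the list (0.374%), against 0.73% of all mRNA sites.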

How the data were processed

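RNA BS-Seq of poly(A)-selected RNA from MCF10A and MDA-MB-468 was analysed, with 1 library per line. The submitters' processing notes name Trim Galore, Bismark and hg19. The methods give MeRanTK for aligning RNA reads and calling cytosines, and Bismark for DNA. For each cytosine the authors deposited raw counts of unconverted and converted reads, without normalization, from a coverage of 5. The files held 76098976 counts at 3146911 cytosines in MCF10A and 90960018 counts at 3489803 cytosines in MDA-MB-468, and all nuclear positions fell on a C of GRCh37.

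Sites with at least 10 counts on same-strand exons of GENCODE release 44 (lift to GRCh37) basic transcripts, or on chrM, entered the analysis. The background was the unconverted share of all their counts. A one-sided Fisher's exact test compared every site with it, and a two-sided one compared the libraries at shared sites, both with Benjamini-Hochberg adjustment over all sites tested at 0.05. Where a site lay in several regions, 5′UTR came before CDS and CDS before 3′UTR. QNB, which the methods use between lines, was not run, since it is not installed and there are no replicates. Pairing was predicted with RNAplfold (ViennaRNA 2.7.2, window 300 nt, span 150 nt, 70 degrees), and 50-nt converted windows were searched in GRCh37. The structure filter of the methods was not applied. Tests were checked on simulated counts. Analyses ran in Python 3.11.15 with numpy 2.4.6, scipy 1.17.1 and pandas 2.3.3.

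Members and gene lists were chosen with earlier results of these data known. Named were the 10 members with the most m5C sites, the 5 m5C sites of highest coverage with a ratio of at least 0.2 in each library, differential sites, sites called in both libraries or in the CTCCA and CNGGG contexts in both, and the levels of the interferon-induced subunits beside their constitutive counterparts. Other genes were named after their values were seen. Mouse and DNA methylation data were not analysed here. The MCF10A result of the list of other proteasome pathway genes is not reported here.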

Additional observations from a re-analysis of the deposited data

How the results depend on the processing

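No paired analysis was possible because each cell line has 1 library. For the same reason no library could be left out. Of 114 recomputed values, 94 stayed within the limits set, a factor of 1.5 for counts and the main interval for shares, and 20 moved. With a coverage minimum of 20, the unconverted share fell to 2.09% (MCF10A) and 1.65% (MDA-MB-468), and the called share rose to 0.572% in the CDS of MCF10A and to 2.65% in the 3′UTR of MDA-MB-468. A threshold of 0.01 left 8 m5C sites in MCF10A, with 0.139% of the 5′UTR, 0.135% of the CDS and 0.127% of the 3′UTR, and 0.0835% of the CDS in MDA-MB-468. Requiring a methylation ratio of at least 0.2 left 11 and 6 m5C sites. Leaving out sites of pairing probability over 0.5 left 6 m5C sites in 4 genes in MCF10A and 3 in 3 genes in MDA-MB-468. It put the 5′UTR of MCF10A at 0%, and in MDA-MB-468 the CDS at 0.0682% and the 3′UTR at 0.307%. Thinning shared sites to the lower coverage left a median of 10 (6 to 11) and 7 (6 to 7) m5C sites over 5 draws. The main counts were 17 and 19 over all member sites, but 14 and 18 at the shared sites. The binomial test, a nuclear background, recurring windows, other genes' exons, all transcripts, CDS priority and leaving out PSMC3IP, alone or with PSME3IP1 (the latter added after the data were seen), moved no value beyond these limits. The count of differential sites was 0 under all 6 alternatives run, but most of these could give nothing else. The threshold of 0.01 and leaving out paired sites, recurring windows or other genes' exons can only lower a count that was already 0. These fixed values are among the 94 that stayed within the limits. Only the coverage minimum of 20 and the chi-square test could have given a higher count. By the chi-square test 18 member sites had an unadjusted p under 0.05.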
